A study of Mus musculus with 6 samples.

Results

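Imprinted genes, of which mainly the copy inherited from a single parent is transcribed, were followed in mouse embryonic stem cells (mESCs) that lack all active DNA methyltransferases. The genes were 41 members of 19 imprinted clusters or single loci, chosen by name from the 53390 genes that had a transcript in the data. The level of a gene was the sum over its transcripts, taken with the gene names of GENCODE M21. By the parental copy usually described as transcribed, 23 of the genes were classed as paternal and 16 as maternal. These classes are labels that can depend on the tissue, and the parent of origin was not measured in these cells. Gnas and Inpp5f, whose transcripts differ in the parental copy, were put in neither class. Every other gene was given a single class, including Grb10, whose transcripts have different starts.

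The TKO mESC line carries inactivated Dnmt1, Dnmt3a and Dnmt3b genes (Dnmt1-/-, Dnmt3a-/-, Dnmt3b-/-), and the comparison was between TKO cells kept in serum and TKO cells kept in 2i. The TKO-serum cells grew in DMEM with 15% fetal calf serum, non-essential amino acids, pyruvate, beta-mercaptoethanol, antibiotics and leukaemia inhibitory factor (LIF) at 500 U/ml. The TKO-2i cells grew in serum-free N2B27 medium with albumin, monothioglycerol, antibiotics, 1000 U/ml LIF, 1 µM PD0325901, which blocks MEK, and 3 µM CHIR99021, which blocks GSK3. The genotype and LIF were thus shared, whereas serum, the inhibitors and the dose of LIF changed together and cannot be told apart. TKO is a single line derived from male J1 cells of an inbred strain, so that both parental copies carry the same sequence and the values below are sums over both copies. The question was how transcription at imprinted loci differs between the media where no DNA methylation can be kept.

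Each condition had 3 poly(A)-selected, strand-specific RNA-seq libraries made from 500 ng of RNA and labelled as biological replicates. The labels do not say how the cultures were separated, and the p-values measure the spread between these libraries. The totals of estimated counts were 46228700, 44180642 and 43896549 for replicates 1, 2 and 3 of TKO-2i. TKO-serum replicates 1, 2 and 3 had 38274042, 51932739 and 44827609. Levels are given as TPM, which corrects for transcript length and has a fixed sum per library, and values follow the order of replicates 1, 2 and 3. At these depths 3 counts, taken as the smallest visible level, correspond to between 0.0578 and 0.0784 CPM (counts scaled to the size of the library), a limit that covers counting error only.

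TKO-2i replicate 2 stood apart from the other TKO-2i libraries. The chi-square statistic per gene, which is about 1 where 2 libraries differ by sampling noise alone, was 48.13 between replicates 1 and 2 and 29.27 between replicates 2 and 3, against 7.51 between replicates 1 and 3. In TKO-serum the pairs gave between 4.78 and 16.37. Among the imprinted genes tested, TKO-2i replicate 2 had the highest TPM of its group in 28 of 37, but TKO-serum replicate 2 likewise in 23. These 2 libraries also had the smallest share of TPM on the transcripts of Mir6236 and Gm23935 (9.13% and 9.6%), which raises the TPM of other genes. The numbers of genes called higher and lower were also taken without this library for the 41 genes, the other imprinted genes and the genes that keep imprints, but not for the smaller groupings or the markers. Without it 33 of the 37 log2 fold changes moved by at most 0.2, and the remaining genes were Kcnq1ot1, Magel2, Zim1 and Ascl2, whose values without it are given beside them.

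At many imprinted loci, though not at all, a control region is methylated in the egg or in the sperm. This mark is copied at each cell division and read by neighbouring genes. Where the mark is present it can block the boundary protein CTCF, as between H19 and Igf2, or silence the promoter of a long non-coding RNA that represses genes around it, as at Kcnq1ot1 and Airn. In embryos that lack Dnmt1, H19 is known to be transcribed from both copies while Igf2 and Igf2r are silenced, and the products of imprinted genes are best known for their part in fetal growth, the placenta and the brain.

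The knocked-out genes were examined first. Dnmt1 had a TPM of 29.1, 34.6 and 29.3 in TKO-2i and of 25.7, 28.6 and 27.9 in TKO-serum. Dnmt3a had a TPM of 4.30, 5.19 and 4.54 in TKO-2i and of 21.3, 23.0 and 22.8 in TKO-serum. Dnmt3b had a TPM of 6.71, 9.53 and 8.49 in TKO-2i and of 18.8, 20.9 and 20.7 in TKO-serum. RNA of all 3 genes was thus present in every library, and the groups did not overlap. Which exons are missing was not analysed here, so summed counts cannot show the deletions. Dnmt3l, the cofactor of the de novo enzymes that is not part of the knockout, had a TPM of 45.2, 46.5 and 49.1 in TKO-2i and of 486, 506 and 504 in TKO-serum. Against TKO-serum the log2 fold changes were 0.24 for Dnmt1, -2.04 for Dnmt3a, -1.11 for Dnmt3b and -3.31 for Dnmt3l, with edgeR adjusted p of 0.0022, 6.3e-08, 7.1e-07 and 1.7e-08.

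Cell-type markers are given beside the genes tested as a whole, where TKO-2i was higher for 31.9% and lower for 30.6% by the test described with the imprinted genes. All 6 pluripotency markers were abundant, with a summed TPM of 2869, 2848 and 2681 in TKO-2i and of 3190, 3281 and 3205 in TKO-serum. Pou5f1 was the most abundant of them, with 2 of the 6 higher and 3 lower in TKO-2i. Trophoblast markers, 9 of 11 tested, summed to 86.5, 82.2 and 82.8 TPM in TKO-2i and to 41.7, 42.2 and 40.4 in TKO-serum. Krt8 led that list and rose with Cdx2 and Eomes (log2 fold changes 1.78, 4.28 and 2.81). Hand1 and Krt7 fell (-2.11 and -1.75), with 4 of the list higher and 4 lower, while the placental markers Tpbpa and Prl3d1 had 3 or fewer counts in every library. Endoderm markers, 7 of 9 tested and led by Gata4, summed to 4.90, 5.63 and 4.62 TPM in TKO-2i and to 9.79, 11.1 and 12.25 in TKO-serum, with 5 lower and 0 higher, among them Gata6, Sox7 and Pdgfra (-1.75, -4.05 and -2.50). Mesoderm markers, 5 of 6 tested, summed to 12.95, 13 and 18.26 TPM against 5.96, 6.26 and 6.48, and were led by T, which rose by 5.58, whereas Myh6 fell by 2.77, with 2 higher, 1 lower and 2 not called. Neural markers, 5 of 5 tested and led by Tubb3, summed to 90.3, 91.3 and 88.0 TPM against 139.6, 143.3 and 140.5, with 4 lower, including Pax6, Sox1 and Neurod1 (-2.46, -1.28 and -5.65), and 1 higher. Fibroblast or feeder markers, 3 of 6 tested and led by Thy1, summed to 4.12, 4.79 and 4.55 TPM against 5.57, 6.22 and 5.77, with 2 lower. Many imprinted genes are also transcribed in trophoblast, endoderm or neural cells. The part of these markers in the results was not tested, and in bulk samples fewer cells of a type and less RNA per cell cannot be told apart.

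Most of the 41 imprinted genes were lower in TKO-2i than in TKO-serum. The summed TPM of the 41 genes was 1346, 1642 and 1460 in TKO-2i and 2452, 2714 and 2661 in TKO-serum, so that every TKO-2i library lay below every TKO-serum library. The quasi-likelihood F-test of edgeR was applied to the counts of all 18177 genes that passed its filter on low counts, and a gene was called at a Benjamini-Hochberg adjusted p under 0.05. Of the 41 imprinted genes 37 were tested, and all 37 were over the filter's minimum of 0.225 CPM in every library of both conditions. The test called 33 of them (89.2%), against 62.5% of all genes tested. In TKO-2i 27 fell (73.0%, against 30.6% of all genes) and 6 rose (16.2%, against 31.9%), and 4 were not called. At least a 2-fold fall was seen in 17 (45.9%, against 15.6%) and at least a 2-fold rise in 4 (10.8%, against 7.72%). The median log2 fold change, given as TKO-2i over TKO-serum throughout, was -0.70 for the 37 genes and 0.01 for all genes tested. Without TKO-2i replicate 2 the counts were again 27 lower and 6 higher. The fit without it called 12568 of all 18710 genes tested in either direction, against 11361 of 18177 with every library.

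The direction differed little between the assigned parental classes. Of the 20 paternally expressed genes tested 14 fell and 3 rose, with a median log2 fold change of -0.89. Of the 15 maternally expressed genes tested 11 fell and 3 rose, with a median of -0.78. A difference between the parental classes was not tested. By position, 18 of the 41 genes lie on chromosome 7, where 12 fell and 3 rose, and 6 each on chromosomes 6 and 12. The tested genes of chromosome 6 as a whole were shifted upward, with a median log2 fold change of 0.41, as were those of chromosome 11, with 0.26, while the medians of the other chromosomes lay between -0.15 and 0.05. That shift moves against the falls of Peg10, Sgce, Nap1l5, Grb10 and Zrsr1 and with the rise of Copg2, and with the chromosome median as an offset all 6 genes kept their direction and their call, whereas the cause of the shift was not tested.

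**Figure D1:**
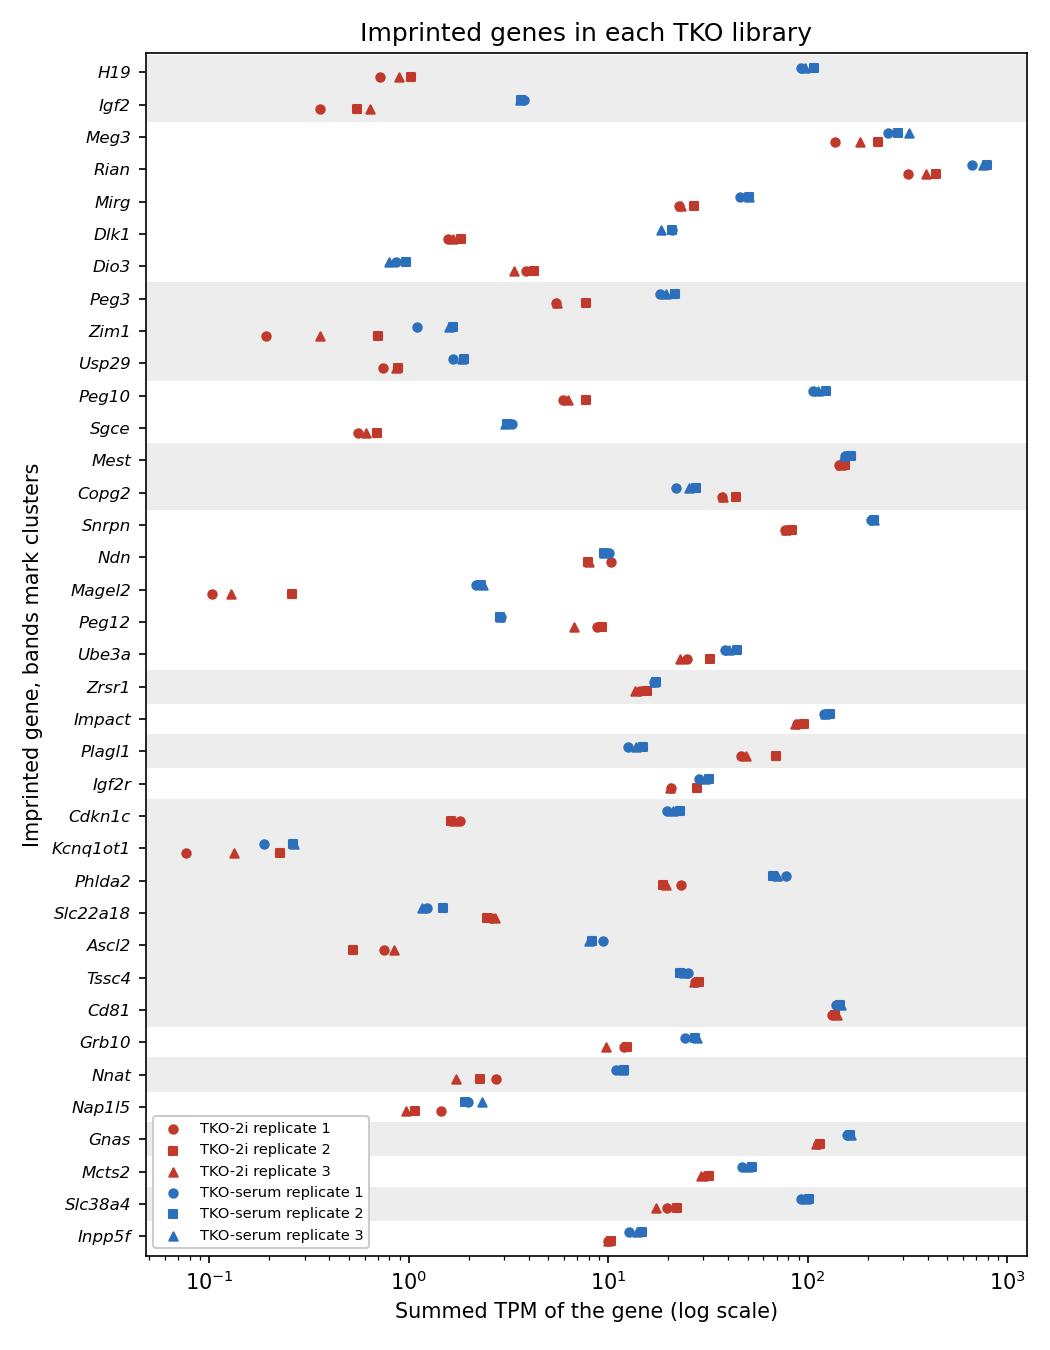
Summed TPM on a log axis of each imprinted gene that was tested, with a point for each of the 3 TKO-2i and 3 TKO-serum libraries and shaded bands marking the clusters. H19 lies near 1 TPM in TKO-2i and near 100 TPM in TKO-serum, while Mest, Ndn, Cd81 and Kcnq1ot1 show libraries of one condition among those of the other.

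**Figure D2:**
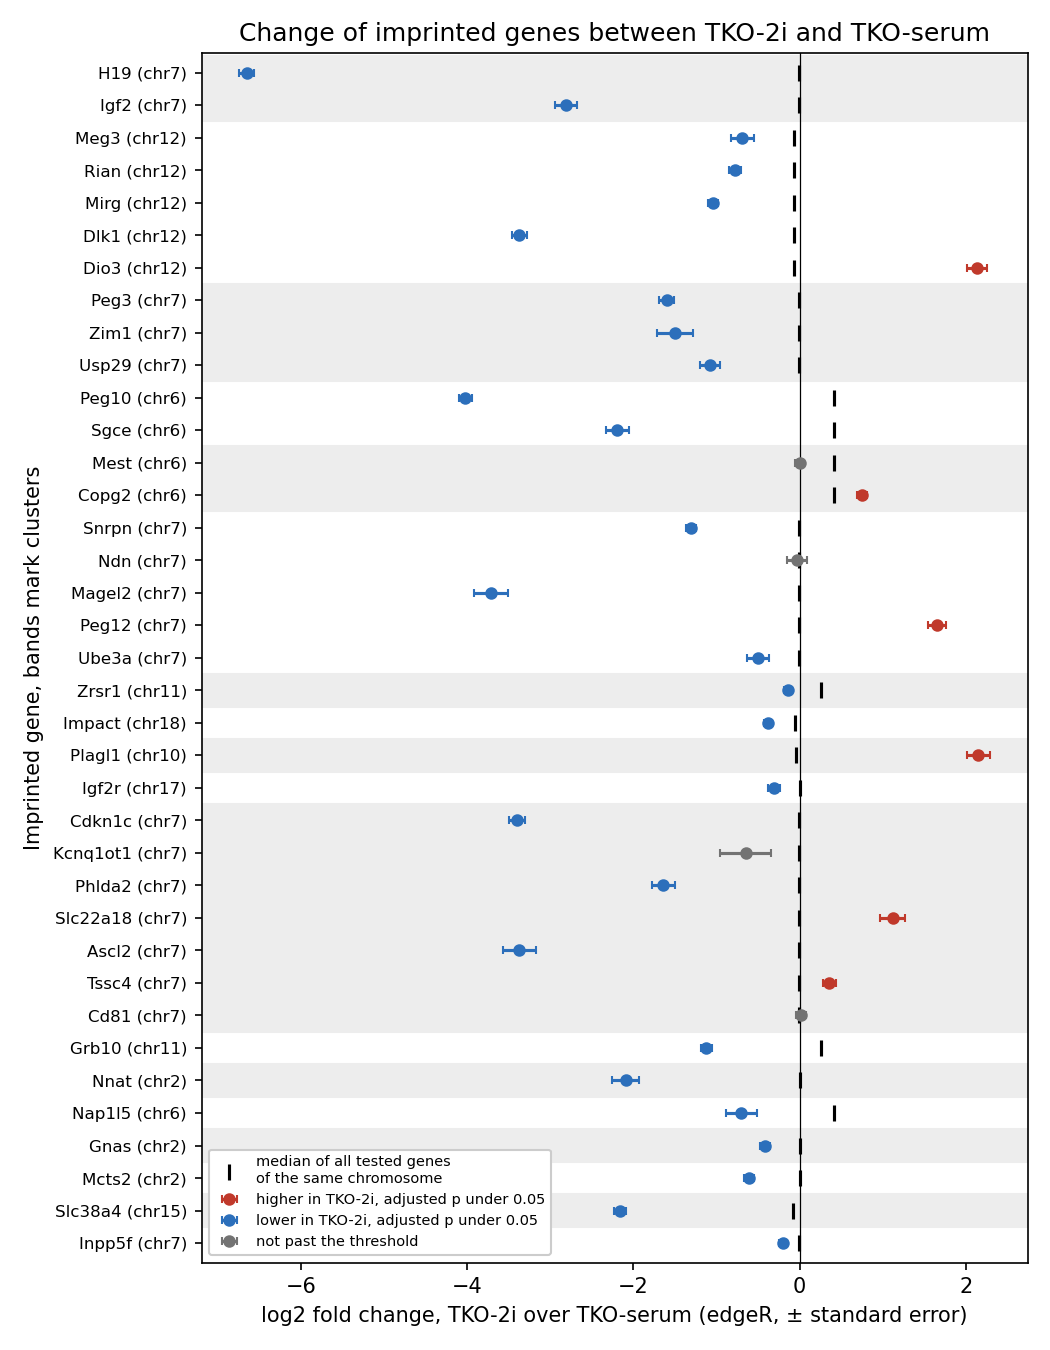
Log2 fold change of TKO-2i over TKO-serum with its standard error for the 37 imprinted genes tested (3 libraries in each condition), coloured by call, with a black tick at the median of all tested genes of the same chromosome. The points run from -6.65 for H19 to 2.15 for Plagl1, with 27 genes called lower and 6 called higher.

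The largest difference was at the Igf2-H19 cluster. H19, a maternally expressed long non-coding RNA of chr7:142575529-142578143 on the minus strand (ENSMUSG00000000031), had a TPM of 0.714, 1.03 and 0.898 in TKO-2i and of 92.4, 108 and 96.5 in TKO-serum. The TKO-2i libraries held only 69, 81 and 81 counts of it, all over the floor of 3, while those of TKO-serum held 6780, 9600 and 7936. H19 fell in TKO-2i with a log2 fold change of -6.65 ± 0.09 (the fit's standard error, n = 3 and 3 libraries, adjusted p = 3.8e-09). Igf2, the fetal growth factor transcribed from the paternal copy at chr7:142650766-142666816 (ENSMUSG00000048583), had a TPM of 0.358, 0.547 and 0.638 in TKO-2i and of 3.77, 3.65 and 3.61 in TKO-serum. All TKO-serum libraries lay above all TKO-2i libraries, and Igf2 was 7.01-fold lower in TKO-2i (log2 fold change -2.81 ± 0.13, adjusted p = 4.3e-07). The cluster's genes thus fell together, although they are transcribed from opposite parental copies where imprinting is intact.

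In the Dlk1-Dio3 cluster of chromosome 12, the maternally expressed non-coding RNAs included Rian and Meg3, which had the highest TPM of the 41 genes in either condition. Rian, the host of small nucleolar RNAs, had a TPM of 318, 439 and 394 in TKO-2i and of 669.7, 793 and 755 in TKO-serum. Meg3, at the start of the same transcribed domain (chr12:109541001-109571726), had a TPM of 137, 224 and 182 in TKO-2i and of 252, 284 and 323 in TKO-serum. Mirg, the host of a large group of microRNAs, had a TPM of 22.7, 26.8 and 23.1 in TKO-2i and of 45.7, 51.1 and 50.9 in TKO-serum. For none of these RNAs did the groups overlap, though TKO-2i replicate 2 came close to TKO-serum replicate 1 for Meg3. The log2 fold changes were -0.78 ± 0.07 for Rian (adjusted p = 2.4e-05), -0.69 ± 0.14 for Meg3 (0.0024) and -1.04 ± 0.06 for Mirg (1.3e-06).

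Genes of the paternal copy in this cluster moved in opposite directions. Dlk1, a transmembrane relative of the Notch ligands (ENSMUSG00000040856, chr12:109452823-109463336), had a TPM of 1.57, 1.84 and 1.67 in TKO-2i and of 20.9, 20.9 and 18.3 in TKO-serum. It was low in all TKO-2i libraries and 10.4-fold lower than in TKO-serum (log2 fold change -3.37 ± 0.09, adjusted p = 4.6e-08). Dio3, the deiodinase that inactivates thyroid hormone, had a TPM of 3.88, 4.23 and 3.38 in TKO-2i and of 0.858, 0.964 and 0.793 in TKO-serum. The higher group was here TKO-2i, without overlap, and Dio3 rose 4.37-fold (log2 fold change 2.13 ± 0.12, adjusted p = 1.7e-06). Rtl1, a retrotransposon-derived gene that lies antisense to microRNAs of the domain, had 1, 1 and 0 counts in TKO-2i and 7, 4 and 3 in TKO-serum and was not tested.

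**Figure D3:**
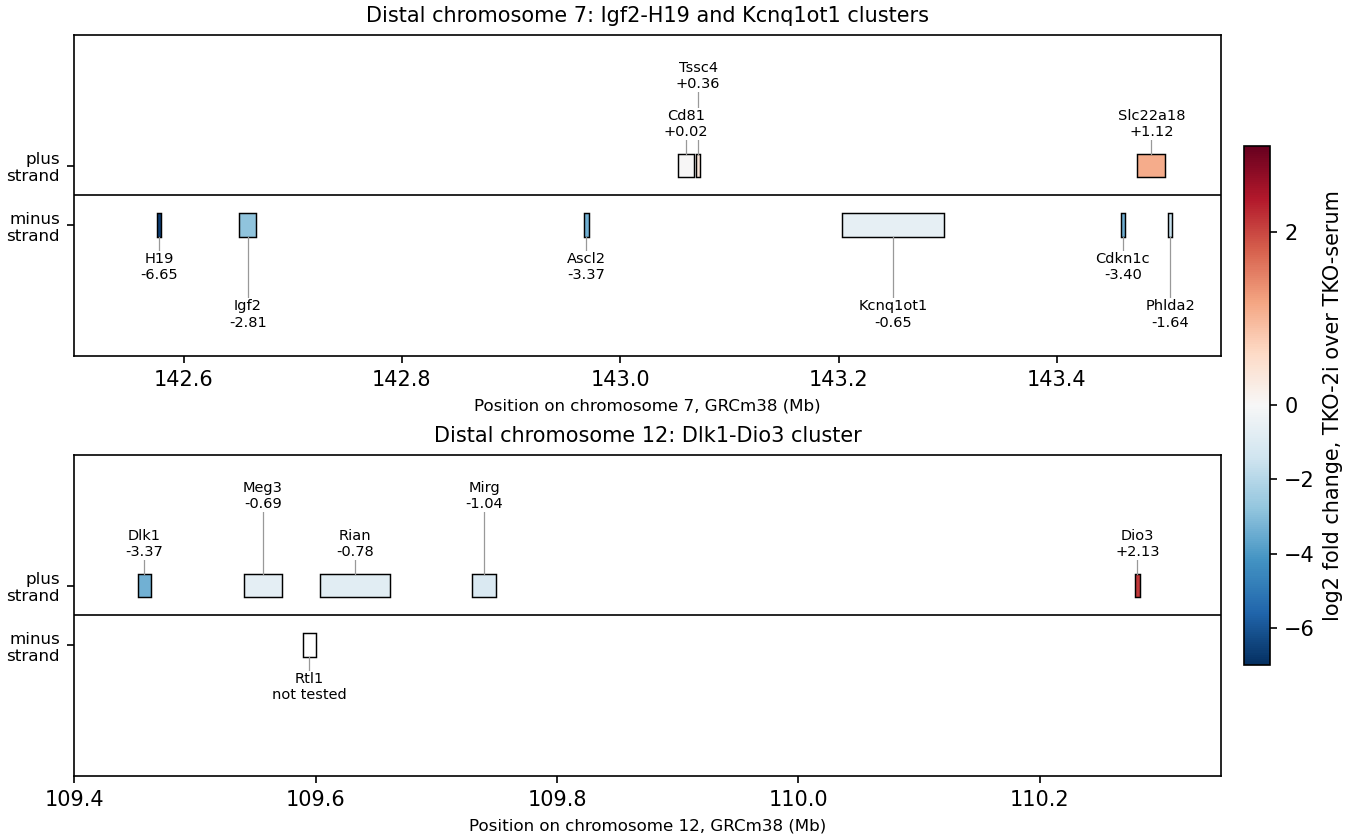
Maps to scale of the Igf2-H19 and Kcnq1ot1 clusters of distal chromosome 7 and of the Dlk1-Dio3 cluster of chromosome 12 (GRCm38), with genes drawn by strand and coloured by log2 fold change on a scale with separate slopes for rises and falls. On chromosome 12 Dio3 (+2.13) stands beyond 4 genes that fell, and on chromosome 7 Slc22a18 (+1.12) lies between Cdkn1c (-3.40) and Phlda2 (-1.64).

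In the Kcnq1ot1 cluster, which lies further towards the end of chromosome 7, 3 of 7 genes fell, 2 rose and 2 were not called. Cdkn1c, an inhibitor of cyclin-dependent kinases that restrains growth (chr7:143458339-143461050), had a TPM of 1.81, 1.63 and 1.69 in TKO-2i and of 19.8, 22.8 and 21.1 in TKO-serum. Phlda2, which restrains growth of the placenta, had a TPM of 23.0, 18.8 and 19.4 in TKO-2i and of 78.2, 67.0 and 70.6 in TKO-serum. Ascl2, a transcription factor of trophoblast, had a TPM of 0.752, 0.525 and 0.840 in TKO-2i and of 9.39, 8.25 and 8.04 in TKO-serum. The TKO-2i libraries were the low ones for each of these genes, with no overlap. Cdkn1c fell by 3.40 ± 0.10 on the log2 scale (adjusted p = 6.3e-08), Phlda2 by 1.64 ± 0.14 (1.5e-05) and Ascl2 by 3.37 ± 0.20 (1.9e-06). Without TKO-2i replicate 2 the log2 fold change of Ascl2 was -3.13 (8.8e-08).

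The other coding genes of that cluster were higher in TKO-2i or close to equal. Slc22a18, a transporter of organic cations, had a TPM of 2.57, 2.46 and 2.69 in TKO-2i and of 1.23, 1.48 and 1.17 in TKO-serum. Tssc4 had a TPM of 27.3, 28.5 and 27.0 in TKO-2i and of 25.0, 22.9 and 24.0 in TKO-serum. Both were higher in all TKO-2i libraries, with log2 fold changes of 1.12 ± 0.15 (adjusted p = 0.00023) and 0.36 ± 0.08 (0.0058). Cd81, a widely expressed tetraspanin, had a TPM of 133, 137 and 141 in TKO-2i and of 139, 144 and 147 in TKO-serum. Its groups overlapped, and its log2 fold change of 0.02 ± 0.06 did not pass the test (adjusted p = 0.75).

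Kcnq1ot1 itself, the long non-coding RNA that represses the cluster in cis, was scarce in poly(A) RNA. It had a TPM of 0.0760, 0.226 and 0.133 in TKO-2i and of 0.188, 0.264 and 0.267 in TKO-serum, from 184, 509 and 310 counts and from 373, 688 and 607 counts. TKO-2i replicate 2 lay inside the TKO-serum range and the other TKO-2i libraries below it. The log2 fold change of -0.65 ± 0.31 did not pass the test (adjusted p = 0.10). Without TKO-2i replicate 2 it was -1.08 and passed (adjusted p = 0.0010), and without TKO-2i replicate 1 it was -0.36 (0.15). With every library kept, it passed with the replicate number as a block (-0.69, adjusted p = 0.0051). It also passed without a filter on low counts (-0.66, 0.021), so that the call depends on the libraries and on the fit. Over all alternatives its adjusted p ran from 0.0010 to 0.23.

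At the Peg3 locus of proximal chromosome 7 all 3 genes fell. Peg3, a paternally expressed zinc finger protein (chr7:6703892-6730431), had a TPM of 5.49, 7.74 and 5.52 in TKO-2i and of 18.1, 21.7 and 19.6 in TKO-serum. Usp29, a ubiquitin protease gene that shares its start region, had a TPM of 0.744, 0.879 and 0.866 in TKO-2i and of 1.67, 1.90 and 1.84 in TKO-serum. Zim1, a maternally expressed zinc finger gene beside Peg3, had a TPM of 0.192, 0.698 and 0.359 in TKO-2i and of 1.10, 1.67 and 1.59 in TKO-serum. No TKO-2i library reached the TKO-serum range for any of them, with replicate 2 the highest of TKO-2i each time. Peg3 changed by -1.60 ± 0.09 on the log2 scale (adjusted p = 1.9e-06), Usp29 by -1.08 ± 0.12 (8.6e-05) and Zim1 by -1.50 ± 0.22 (0.00043). Zim1 without TKO-2i replicate 2 gave -1.78 (1.9e-05).

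At the Peg10-Sgce locus of chromosome 6 the genes are transcribed from a shared start region in opposite directions. Peg10, a retrotransposon-derived gene needed for the placenta (ENSMUSG00000092035, chr6:4747306-4760517), had a TPM of 5.91, 7.75 and 6.28 in TKO-2i and of 106, 124 and 113 in TKO-serum. Sgce, which encodes epsilon-sarcoglycan (chr6:4674350-4747207), had a TPM of 0.555, 0.694 and 0.607 in TKO-2i and of 3.27, 3.12 and 3.03 in TKO-serum. Levels in TKO-2i were thus low for both genes in all 3 libraries. Peg10 was 16.2-fold lower (log2 fold change -4.02 ± 0.08, adjusted p = 1.5e-08) and Sgce 4.56-fold lower (-2.19 ± 0.14, adjusted p = 2.8e-06), on a chromosome whose median gene was shifted by 0.41 in the other direction. Asb4, a maternally expressed neighbour, had 6, 1 and 3 counts in TKO-2i and 5, 12 and 11 in TKO-serum and was not tested.

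Mest, further along chromosome 6, was among the imprinted genes that did not pass the test. Mest, a paternally expressed gene of the hydrolase fold (chr6:30723547-30748465), had a TPM of 144, 154 and 147 in TKO-2i and of 155, 164 and 153 in TKO-serum. TKO-2i replicate 2 lay within the TKO-serum range. The log2 fold change was 0.00 ± 0.05 (adjusted p = 0.96). With the median of its chromosome taken as the baseline, it was -0.41 and passed the test (adjusted p = 0.00020), so that for Mest the outcome turns on whether the shift of chromosome 6 is counted as part of the gene's own change (adjusted p from 0.00020 to 1 over all alternatives). Copg2, a coatomer subunit gene that overlaps the end of Mest on the opposite strand, had a TPM of 37.3, 43.8 and 37.6 in TKO-2i and of 21.9, 27.7 and 25.3 in TKO-serum. All TKO-2i libraries were higher for Copg2, with a log2 fold change of 0.75 ± 0.06 (adjusted p = 1.1e-05), or 0.34 (0.0012, the largest of all alternatives, the smallest being 3.4e-25) against the median of the chromosome.

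The Snrpn-Ube3a domain of central chromosome 7 held falls, a rise and a gene that was not called. Snrpn, a spliceosomal protein gene that is abundant in stem cells, had a TPM of 76.6, 83.8 and 77.6 in TKO-2i and of 208, 216 and 215 in TKO-serum. Magel2, a MAGE family gene that acts with ubiquitin ligases, had a TPM of 0.103, 0.260 and 0.129 in TKO-2i and of 2.18, 2.31 and 2.37 in TKO-serum. The TKO-2i libraries were the low ones for both genes, and Magel2 rested on 19, 38 and 22 counts there. Snrpn fell 2.49-fold (log2 fold change -1.31 ± 0.06, adjusted p = 3.2e-07). Magel2 fell 13.1-fold (-3.71 ± 0.20, adjusted p = 1.1e-06), and its log2 fold change without TKO-2i replicate 2 was -4.06 (1.1e-08).

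Peg12, Ndn and Ube3a lie in the same domain. Peg12, an intronless gene of the Frat family of GSK3-binding proteins, had a TPM of 8.77, 9.30 and 6.75 in TKO-2i and of 2.89, 2.86 and 2.87 in TKO-serum. It was higher in every TKO-2i library and rose 3.13-fold (log2 fold change 1.65 ± 0.11, adjusted p = 4.2e-06). Ndn, another MAGE family gene, had a TPM of 10.3, 7.88 and 7.98 in TKO-2i and of 10.1, 9.52 and 9.56 in TKO-serum. Replicate 1 was the highest library of each group for Ndn and the ranges overlapped, with a log2 fold change of -0.03 ± 0.12 (adjusted p = 0.84). Ube3a, a ubiquitin ligase gene that is imprinted in neurons, had a TPM of 24.9, 32.3 and 23.0 in TKO-2i and of 38.7, 44.0 and 40.5 in TKO-serum, and no TKO-2i library reached TKO-serum. Its log2 fold change was -0.50 ± 0.13 (adjusted p = 0.0083). Snhg14, the transcript that runs antisense through Ube3a, had a TPM of 22.2, 35.0 and 27.8 in TKO-2i and of 53.7, 70.3 and 68.5 in TKO-serum, and reads of the pair can be told apart only if strand was used in the counting, which the sources used here do not give.

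Among single loci, only Plagl1 rose. Plagl1, a zinc finger transcription factor of chr10:13060504-13131694, had a TPM of 46.3, 69.7 and 49.2 in TKO-2i and of 12.6, 15.0 and 13.8 in TKO-serum. Every TKO-2i library was above every TKO-serum library, with replicate 2 the highest of each group. Plagl1 was 4.43-fold higher in TKO-2i (log2 fold change 2.15 ± 0.14, adjusted p = 3e-06). Slc38a4, an amino acid transporter gene of chr15:96994820-97055956, went the other way, with a TPM of 19.8, 22.1 and 17.4 in TKO-2i and of 92.3, 102 and 98.2 in TKO-serum. Nnat, a small membrane protein gene within an intron of Blcap, had a TPM of 2.75, 2.26 and 1.73 in TKO-2i and of 11.0, 12.0 and 11.8 in TKO-serum. Grb10, an adaptor that dampens insulin receptor signalling, had a TPM of 12.0, 12.4 and 9.76 in TKO-2i and of 24.2, 27.1 and 28.0 in TKO-serum. The ranges of these falling genes were separate. Slc38a4 changed by -2.16 ± 0.07 on the log2 scale (adjusted p = 1.3e-07), Nnat by -2.09 ± 0.16 (7.6e-06) and Grb10 by -1.12 ± 0.07 (2.7e-06).

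The Igf2r-Airn locus and the remaining single loci held falls of less than 2-fold and genes that were not tested. Gnas, which encodes the alpha subunit of the stimulatory G protein, had a TPM of 112, 116 and 109.5 in TKO-2i and of 158, 163 and 165 in TKO-serum (log2 fold change -0.41 ± 0.06, adjusted p = 0.00062). Impact, a regulator of the amino acid stress response, had a TPM of 88.2, 96.1 and 85.9 in TKO-2i and of 121, 129 and 122 in TKO-serum (-0.38 ± 0.05, adjusted p = 0.00017). Both genes were lower in every TKO-2i library. Igf2r, the receptor that clears IGF2, had a TPM of 20.8, 28.0 and 20.4 in TKO-2i and of 28.5, 31.9 and 30.7 in TKO-serum (-0.31 ± 0.07, adjusted p = 0.0050). TKO-2i replicate 2 came within reach of TKO-serum replicate 1 for Igf2r without overlap. Airn, the non-coding RNA transcribed across Igf2r, had 0, 4 and 3 counts in TKO-2i and 2, 3 and 2 in TKO-serum and was not tested. Inpp5f, an inositol lipid phosphatase gene, had a TPM of 9.97, 10.3 and 9.96 in TKO-2i and of 12.7, 14.7 and 13.9 in TKO-serum (-0.20 ± 0.05, adjusted p = 0.0078). Its groups were separate, and the log2 fold change was -0.36 (0.0011, against 0.037 at the most over all alternatives) with counts scaled for the length of the transcripts used. Rasgrf1, an exchange factor of Ras, had 2, 4 and 3 counts in TKO-2i and 1, 6 and 10 in TKO-serum and was not tested.

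A last group consists of imprinted retrogenes, intronless copies of other genes. Mcts2, a copy of the translation factor gene Mcts1 within an intron of H13, had a TPM of 30.9, 32.1 and 29.4 in TKO-2i and of 46.7, 52.5 and 50.4 in TKO-serum. Nap1l5, a nucleosome assembly protein gene within Herc3, had a TPM of 1.45, 1.07 and 0.963 in TKO-2i and of 1.99, 1.92 and 2.32 in TKO-serum. Zrsr1, a copy of the splicing factor gene Zrsr2 within Commd1, had a TPM of 14.4, 15.7 and 13.7 in TKO-2i and of 17.1, 17.4 and 17.1 in TKO-serum. All 3 were lower in each TKO-2i library, by -0.61 ± 0.06 for Mcts2 (adjusted p = 3.2e-05), -0.70 ± 0.19 for Nap1l5 (0.011) and -0.14 ± 0.05 for Zrsr1 (0.034) on the log2 scale. Against the median of chromosome 6, Nap1l5 was at -1.10 (0.00094, the smallest of all alternatives, the largest being 0.044). Zrsr1 lost its call with DESeq2 (adjusted p = 0.10), without a filter on low counts (0.091) and when any library other than TKO-2i replicate 1 was left out, as when TKO-2i replicate 2 was left out (0.054), with a range from 0.00012 to 0.12 over all alternatives.

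Reads of a retrogene can be shared with the gene it was copied from. Mcts1 had a TPM of 57.6, 69.6 and 58.8 in TKO-2i and of 58.4, 72.8 and 65.5 in TKO-serum (log2 fold change 0.02, adjusted p = 0.90). Zrsr2 had a TPM of 57.6, 59.8 and 56.7 in TKO-2i and of 48.6, 53.3 and 49.3 in TKO-serum (0.24, adjusted p = 0.0020), the direction opposite to Zrsr1. Nap1l1, a relative of Nap1l5, gave -0.00 (0.98) and Nap1l4 gave 0.25 (0.0016). Frat1, the relative of Peg12, had a TPM of 0.990, 0.871 and 0.813 in TKO-2i and of 1.65, 1.49 and 1.55 in TKO-serum (-0.67, adjusted p = 0.0053), while Peg12 rose. How reads were divided within these pairs was not tested. H13, the host of Mcts2, had a TPM of 21.2, 24.3 and 23.0 in TKO-2i and of 17.2, 18.8 and 17.0 in TKO-serum and so differed from Mcts2 in the direction of its groups.

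Proportions within clusters were compared for a chosen pair of genes in each of 7 clusters. Of 7 clusters with at least 2 genes tested, every tested gene fell in 3 (Igf2-H19, Peg3 and Peg10-Sgce), and genes that rose stood beside genes that fell in another 3. The log2 ratio of the TPM of H19 to that of Igf2 was 1.00, 0.91 and 0.49 in TKO-2i and 4.61, 4.89 and 4.74 in TKO-serum, a difference between group means of -3.95. The ratio of Meg3 to Dlk1 was 6.45, 6.93 and 6.77 in TKO-2i and 3.59, 3.76 and 4.14 in TKO-serum, a difference of 2.89. In TKO-serum H19 was thus far more abundant than Igf2, and in TKO-2i both were near 1 TPM or below, whereas Meg3 stood further above Dlk1 in TKO-2i. For Cdkn1c to Kcnq1ot1 the log2 ratios were 4.57, 2.85 and 3.67 in TKO-2i and 6.72, 6.43 and 6.30 in TKO-serum (difference -2.79), with replicate 2 the lowest library of TKO-2i. Peg10 to Sgce differed by -1.76, from a mean of 5.18 ± 0.15 (SD, n = 3) in TKO-serum to 3.42 ± 0.06 in TKO-2i. Smaller differences were found for Snrpn to Ube3a (-0.79), Mest to Copg2 (-0.75) and Peg3 to Usp29 (-0.55). For all 7 pairs the groups were separate, and the exact two-sided permutation test gave p = 0.1, also after adjustment over the 7 pairs, which is the smallest p that 3 against 3 libraries allow. The pair of Igf2r and Airn had no ratio since Airn was at 0 in TKO-2i replicate 1.

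**Figure D4:**
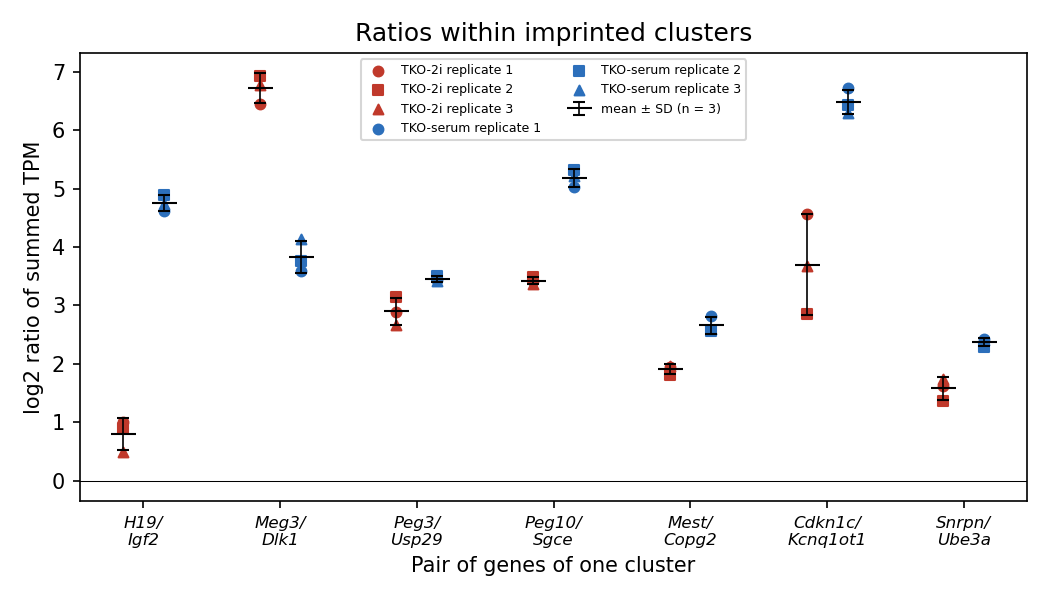
Log2 ratio of the summed TPM of pairs of genes from the same cluster, with a point per library and the mean ± SD (n = 3) of each condition. The ratio of H19 to Igf2 falls from a mean of 4.75 in TKO-serum to 0.80 in TKO-2i, while that of Meg3 to Dlk1 is 3.83 in TKO-serum and 6.72 in TKO-2i.

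Several imprinted genes start transcripts at more than 1 promoter, and the share of each transcript in the TPM of its gene was compared without a test. Grb10-203, which starts inside the gene at chr11:11930508-12027971, held 15.3%, 9.29% and 21.7% of Grb10 in TKO-2i and 1.53%, 2.36% and 0.287% in TKO-serum. The upstream transcript Grb10-201 held 77.1%, 89.6% and 74.5% in TKO-2i and 94.9%, 93.9% and 89.9% in TKO-serum. The internal start thus took a larger share in every TKO-2i library while the gene as a whole fell. Inpp5f-201, the full-length transcript, held 60.7%, 70.2% and 59.4% in TKO-2i and 48.0%, 41.4% and 42.2% in TKO-serum. The short Inpp5f-208 and Inpp5f-203, which start near the end of the gene, held means of 17.0% ± 8.26 and 10.1% ± 2.53 (SD, n = 3) in TKO-2i and of 31.6% ± 2.13 and 17.9% ± 1.44 in TKO-serum, without overlap. Gnas-208, which starts at chr2:174330089, held 78.4% ± 1.67 (SD, n = 3) in TKO-2i and 70.3% ± 2.53 in TKO-serum, again without overlap. Gnas-207, which starts close by at chr2:174330006, held 13.1% ± 1.67 in TKO-2i and 16.8% ± 1.15 in TKO-serum. The pair thus does not compare distant promoters of Gnas. Dio3-201, a shorter transcript of Dio3, held 19.8%, 41.9% and 18.3% in TKO-2i and 0% in all TKO-serum libraries, where Dio3 was near 1 TPM. Snrpn-201, Mest-211 and Plagl1-202 were the leading transcripts of their genes in both conditions, with means of 99.7% and 99.5%, 92.5% and 93.4%, and 42.8% and 39.1% in TKO-2i and TKO-serum. Shares depend on how reads common to several transcripts were divided by the quantifier.

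A further 48 imprinted genes outside the 41 were listed, of which 36 were tested. Of these 83.3% were called, against 62.5% of all genes tested, with 15 higher (41.7%, against 31.9%), 15 lower (41.7%, against 30.6%) and 6 not called, and the median log2 fold change was -0.03. Without TKO-2i replicate 2 the counts were 15 higher and 18 lower, in a fit that called 12568 of all 18710 genes, against 11361 of 18177 with every library. A difference from the 41 genes was not tested. The summed TPM of the 48 genes was 852.5, 948.0 and 866.2 in TKO-2i and 869.0, 924.2 and 889.7 in TKO-serum, with overlapping groups. At least a 2-fold rise was seen in 7 (19.4%, against 7.72% of all genes tested) and a 2-fold fall in 9 (25.0%, against 15.6%). Gatm, an enzyme of creatine synthesis, had a TPM of 0.399, 0.286 and 0.381 in TKO-2i and of 2.72, 2.52 and 2.31 in TKO-serum (-2.68 ± 0.20, adjusted p = 7.5e-06). Atp10a, a lipid transporter gene beside Ube3a, had a TPM of 0.867, 0.997 and 0.903 in TKO-2i and of 5.71, 6.83 and 6.42 in TKO-serum (-2.67 ± 0.07, adjusted p = 4e-08). These falls were present in every TKO-2i library. Cobl and Ddc, on either side of Grb10 on chromosome 11, rose by 1.34 ± 0.06 (3.2e-07) and 1.20 ± 0.05 (3.2e-07), opposite to Grb10, or by 1.08 and 0.94 once the median of chromosome 11 was subtracted. Ppp1r9a, beside Sgce and Peg10, fell by 1.45, while Pon3 of the same region rose by 1.06, and the values were -1.86 and 0.65 once the median of chromosome 6 was subtracted. Begain, beside Dlk1, fell by 1.51, Peg13 by 1.93 and Osbpl5, at the end of the Kcnq1ot1 cluster, by 1.19. Ampd3, Qpct and Sfmbt2 rose by 1.41, 1.22 and 1.03. Snurf, whose transcripts overlap those of Snrpn, fell by 1.33, and reads were divided between both.

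Of 25 genes listed for keeping or erasing imprints, 23 were tested, with 6 higher (26.1%, against 31.9% of all genes tested), 7 lower (30.4%, against 30.6%), 10 not called and a median log2 fold change of -0.11. The number of higher genes was 4 with the chromosome median as an offset. Without TKO-2i replicate 2 the number of lower genes was 11. That fit also called more of all genes, 12568 of 18710 in either direction, against 11361 of 18177 with every library. Zfp57, which binds methylated control regions, had a TPM of 177, 226 and 197 in TKO-2i and of 248, 279.9 and 274 in TKO-serum (-0.26 ± 0.06, adjusted p = 0.0052). Trim28, the corepressor that ZFP57 recruits, had a TPM of 844, 927 and 901 in TKO-2i and of 1203, 1327 and 1325 in TKO-serum (-0.43 ± 0.06, adjusted p = 0.00020). The groups did not overlap in TPM for either gene, and the largest rise of the list was that of Uhrf1, which guides DNMT1 to newly copied DNA (0.97 ± 0.05, adjusted p = 9.6e-07). Zfp445, a further zinc finger protein of imprints, gave -0.11 ± 0.12 (0.43) with overlapping groups, and Dppa3, which protects imprints in the zygote, rose by 0.48 ± 0.10 (0.0024) but lies on chromosome 6 and was at 0.07 once the median of that chromosome was subtracted. Ctcf, the boundary protein of the Igf2-H19 locus, had a TPM of 67.1, 78.4 and 68.7 in TKO-2i and of 67.8, 79.2 and 70.0 in TKO-serum, with overlapping groups and a log2 fold change of 0.07 ± 0.05 (adjusted p = 0.24). Ctcfl, its germline relative that binds similar sequences, had a TPM of 0.349, 0.498 and 0.299 in TKO-2i and of 7.20, 6.87 and 7.53 in TKO-serum. Ctcfl was low in every TKO-2i library and was the gene of this list with a change of at least 2-fold (-4.13 ± 0.13, adjusted p = 8.9e-08).

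Promoter sequences were examined for the letters bound by known regulators of imprints. RefSeq promoter windows (GRCm38.p6) were at hand for 35 of the 41 genes, in 51 windows of 250 bases before a start. The core of ZFP57 sites, TGCCGC, was searched on both strands and found in 8 of the 51 windows (15.7%), against 2850 of all 32851 windows (8.68%). The 8 windows belong to 7 genes, since those of Mest are the same promoter shifted by 3 bases and count its sites again. The genes were Copg2, Mcts2, Meg3, Mest, Nap1l5, Plagl1 and Zim1. GCCATNTT, the core of YY1 sites, was found in 2 windows (3.92%), those of Slc38a4 and Ube3a, against 1284 of all windows (3.91%). The median number of CG dinucleotides per window was 10 for imprinted genes and 6 for all windows. A match is a description of letters, and binding was not analysed here. Windows are shown for a gene that was not called (Mest), genes that fell (Meg3 and Mcts2) and a gene with the YY1 core (Slc38a4), cut where an annotated exon begins, 5′ to 3′ on the strand of the gene, with matches in capitals (GCGGCA is TGCCGC on the other strand). Positions are chr6:30737800-30738049, plus strand, just before the start of Mest-211; chr12:109540746-109540995, plus strand, before Meg3; chr2:152686898-152687034, plus strand, before Mcts2; and chr15:97020360-97020609, minus strand, before an internal start of Slc38a4.
Mest: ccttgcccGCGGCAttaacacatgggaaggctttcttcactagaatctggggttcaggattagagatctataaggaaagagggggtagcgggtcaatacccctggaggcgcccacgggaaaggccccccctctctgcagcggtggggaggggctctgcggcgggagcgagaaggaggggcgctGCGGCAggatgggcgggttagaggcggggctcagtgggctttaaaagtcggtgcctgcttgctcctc
Meg3: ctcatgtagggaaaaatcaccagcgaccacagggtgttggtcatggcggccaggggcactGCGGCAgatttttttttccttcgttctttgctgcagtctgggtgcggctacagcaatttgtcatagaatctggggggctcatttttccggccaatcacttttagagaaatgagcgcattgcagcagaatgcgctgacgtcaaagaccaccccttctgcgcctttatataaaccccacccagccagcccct
Mcts2: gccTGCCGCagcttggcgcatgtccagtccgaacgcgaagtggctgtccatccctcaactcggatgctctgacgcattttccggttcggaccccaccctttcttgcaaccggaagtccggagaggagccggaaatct
Slc38a4: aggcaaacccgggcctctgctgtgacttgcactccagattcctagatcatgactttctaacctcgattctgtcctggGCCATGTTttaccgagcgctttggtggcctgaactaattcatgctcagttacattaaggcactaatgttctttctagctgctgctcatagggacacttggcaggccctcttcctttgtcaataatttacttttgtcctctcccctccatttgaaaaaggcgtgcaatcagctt

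Several of the non-coding RNAs among the imprinted genes carry microRNA hairpins, and the levels given here are those of the annotated host transcripts. By position, RefSeq microRNAs lay within 8 of the 41 genes, with 26 mature sequences in Mirg, 6 in Rian, 3 in Meg3 and 2 each in H19, Igf2, Mest, Usp29 and Rtl1. The mature microRNAs were not analysed here, since poly(A) libraries hold the host transcript. Those of H19, the host with the largest fall, of Igf2 and of Mest, a host that was not called, are shown with their seed (bases 2 to 8) in capitals. miR-675 lies at chr7:142577112-142577133 (5p) and chr7:142577078-142577099 (3p), minus strand, in H19, miR-483 at chr7:142654968-142654989 (5p) and chr7:142654932-142654952 (3p), minus strand, in Igf2, and miR-335 at chr6:30741314-30741336 (5p) and chr6:30741354-30741375 (3p), plus strand, in Mest. No seed was shared between these 6 sequences.
miR-675-5p: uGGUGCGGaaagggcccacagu
miR-675-3p: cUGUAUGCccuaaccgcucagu
miR-483-5p: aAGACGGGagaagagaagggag
miR-483-3p: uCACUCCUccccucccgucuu
miR-335-5p: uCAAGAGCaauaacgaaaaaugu
miR-335-3p: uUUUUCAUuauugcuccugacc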

How the data were processed

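The authors deposited, for each of the 6 TKO libraries, estimated counts that are not normalized, TPM, and the length and effective length (other) of 136288 transcripts. The columns are those of salmon, whose version, index and strand setting are not given in the sources used here, and the submitters' processing notes name mm10. The deposited TPM values are scaled to a fixed sum, of which the transcripts of Mir6236 and Gm23935 hold between 9.13% and 13.01%. Identifiers of 136100 transcripts (99.86%) were found in GENCODE M21. Gene sums of the estimated counts were rounded, then filtered (filterByExpr), scaled by TMM and tested with edgeR 4.0.16 (R 4.3.3; glmQLFit, glmQLFTest, Benjamini-Hochberg over 18177 genes), with medium as the only factor. Standard errors came from the fold change and F. Ratios used an exact permutation test (scipy 1.17.1). Tables and figures used Python 3.11.15, numpy 2.4.6, pandas 2.3.3 and matplotlib 3.10.9. Fits were also run on simulated data, whose outcome is not given here and on which no result rests.

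Replicates differed by more than sampling noise (chi-square per gene between 4.78 and 48.13), and no library was a duplicate. Alternatives were DESeq2 1.42.0, its size factors, other count filters, limma 3.58.1 on log2 TPM with 1 or 0.1 added, length-scaled TPM in place of counts, a replicate block, the chromosome median as an offset, and each library left out. The members and lists were chosen with earlier results of these data known. Named were all 41 members, and genes of the other lists that were called with at least a 2-fold change and a mean CPM of at least 1. Zfp57, Trim28, Zfp445, Dppa3, Ctcf and the Dnmt genes were named whatever their values. So were the genes compared with the retrogenes (Mcts1, Zrsr2, Nap1l1, Nap1l4 and Frat1) and genes that overlap members, such as H13 and Snhg14. Among the markers, the most abundant of each list and the scarce Tpbpa and Prl3d1 were also named. Uhrf1 was named after its value was seen. Protein sequences of the retrogenes were not compared.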

Additional observations from a re-analysis of the deposited data

How the results depend on the processing

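Of the 37 imprinted genes tested, 32 kept their direction and their side of the threshold under all 16 alternatives, among them each library left out, and the number of members was 6 higher and between 26 and 28 lower. The exceptions were Mest, Ndn, Cd81, Zrsr1 and Kcnq1ot1. Mest, at 0.00, took the values -0.02 with DESeq2 size factors, -0.00 with DESeq2, -0.01 without a filter, -0.04 with at least 10 counts in every library, -0.09 with limma on log2(TPM + 1) and on log2(TPM + 0.1), -0.41 with the chromosome median as an offset, and -0.07 with limma on TPM rescaled without Mir6236 and Gm23935, an alternative chosen after seeing the data. With each library left out, it ranged from -0.03 to 0.02. Cd81, at 0.02, took -0.02 with at least 10 counts, -0.07 with limma on either scale and -0.05 on the rescaled TPM, and ranged from -0.02 to 0.07 with each library left out. Ndn ranged from -0.20 to 0.08 in the same way. None of these reversed values passed the test except that of Mest with the chromosome offset, and the cause was not tested for the others. Zrsr1 was no longer called with DESeq2 (-0.14) and without a filter (-0.15), and ranged from -0.16 to -0.12 with each library left out, but was at -0.40 (adjusted p = 0.00012) with the chromosome offset and at -0.22 and -0.24 with limma on log2(TPM + 1) and log2(TPM + 0.1).

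Whether the replicate numbers pair the samples was not settled. Deviations of libraries with the same number correlated at 0.242, 0.329 and 0.014, and those of libraries with different numbers were not compared. With the replicate block, 12539 genes were called in place of 11361, 6 imprinted genes were higher and 28 lower, and Kcnq1ot1 passed the test at -0.69 (adjusted p = 0.0051), as it did without a filter (-0.66, 0.021); the cause was not tested. The number of imprint maintenance genes that were lower was 11 in place of 7 with the replicate block, with counts from length-scaled TPM and with limma on either TPM scale, and between 7 and 11 with each library left out, while the higher ones numbered 4 in place of 6 with limma on either scale, with the chromosome offset and at the lowest with a library left out. The other imprinted genes gave between 13 and 15 higher and between 13 and 20 lower. On log2(TPM + 1) the changes of genes that were scarce in either medium were smaller, since the pseudocount is close to their level. They were -1.50 for Magel2, -1.63 for Igf2, -1.36 for Sgce and 1.36 for Dio3. H19 was at -5.73 and Ascl2 at -2.49 on this scale. Zim1 (-0.80), Usp29 (-0.62) and Slc22a18 (0.64) were then under a 2-fold change. Each medium had 3 libraries, from a single line and with a single sum per gene over both parental copies. Small differences such as that of Zrsr1 are thus at the limit of what can be called. Genes under the filter (Rtl1, Asb4, Airn and Rasgrf1) were not tested in the main fit. Without a filter on low counts, and without TKO-2i replicate 1, the 28 members called lower include a gene from among these, which is not identified here.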
